A study of Homo sapiens with 3 samples.

Results

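The respiratory chain genes described here mainly encode subunits of the 4 electron transport complexes and of ATP synthase, in the nuclear or mitochondrial genome. They include a few assembly factors and isoforms that share the symbols. They were chosen by name alone: NDUFA, NDUFB, NDUFC, NDUFS and NDUFV genes, UQCR genes, COX4 to COX8 genes, ATP5 genes, SDHA to SDHD, and the 13 protein genes of the mitochondrial genome. This gave 114 genes of 33538 in the matrices, of which 101 are nuclear and 13 mitochondrial. The name patterns also took in 8 NDUFAF assembly factors of complex I, the antisense genes NDUFB2-AS1 and NDUFV2-AS1, and the readthrough genes ATP5MF-PTCD1 and NDUFC2-KCTD14. They did not take in CYC1, a subunit of complex III, which is counted with the electron carriers below.

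The study profiled single cells by 10x Genomics droplet RNA sequencing in a beta cell differentiation of H1, a widely used line of human embryonic stem cells. There was 1 library of PAX6-/- cells (KO), 1 of PAX6+/- cells (HET) and 1 of unedited cells (WT). PAX6 is a transcription factor of the islet, eye and brain. Genotype and library cannot be told apart, so no difference between genotypes was tested, and whether a genotype stands for 1 clone is not given in the sources used here. The lesion's place in PAX6 is not given either, so the PAX6 mRNA level, 259 CPM (UMIs per 1000000, scaled with TMM factors) in KO, 215 CPM in HET and 292 CPM in WT CHGA-high cells as defined below, does not check the labels.

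Oxidative phosphorylation passes electrons from NADH through complex I and from succinate through complex II to ubiquinone, then through complex III and cytochrome c to complex IV, where oxygen is reduced. Protons pumped by complexes I, III and IV drive ATP synthase, also called complex V. Complexes I, III, IV and V are each built from subunits of both genomes, while complex II is wholly nuclear. In beta cells the ATP made this way closes potassium channels and so couples glucose to insulin release.

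Cells were split by chromogranin A (CHGA), a granule protein of endocrine cells. Cells with at least 10 CHGA UMIs per 10000 were called CHGA-high and the others CHGA-low, after cells with over 20% mitochondrial UMIs had been left out. The KO library kept 1122 CHGA-high cells, the HET library 638 and the WT library 1649. CHGA-low cells numbered 7663 in KO, 7830 in HET and 7013 in WT. The deposited libraries held 145948590 UMIs in KO, 136834433 in HET and 140068492 in WT. Pairs of libraries shared 26 to 43 barcodes. All 17 endocrine markers, among them SCG2, ISL1 and PCSK1, were higher in CHGA-high cells by edgeR's quasi-likelihood test. The 17 include CHGA itself, which was higher by the rule that set the classes. The labels call the cells beta cells, but INS led the hormone genes in only 200 KO, 178 HET and 427 WT CHGA-high cells, and the liver gene FGB stood at 4477 CPM in KO, 3746 CPM in HET and 5530 CPM in WT CHGA-low cells. Between cut-offs, 171 KO, 110 HET and 310 WT cells lay just inside the limit, at 10 to 20 CHGA UMIs per 10000, and 178 KO, 141 HET and 298 WT cells just outside, at 5 to 10.

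Mitochondrial transcripts took a larger share of the RNA in both mutant libraries than in WT, and the nuclear genes a slightly larger one. In CHGA-high cells the 13 mitochondrial genes held 9.04% of UMIs in KO and 8.52% in HET, against 6.69% in WT. The 101 nuclear genes held 2.87% in KO and 2.71% in HET, against 2.42% in WT. The share was thus 1.35-fold higher in KO and 1.27-fold higher in HET for the mitochondrial genes, and 1.18-fold and 1.12-fold for the nuclear genes. CHGA-low cells gave mitochondrial shares of 5.58% in KO, 6.33% in HET and 4.96% in WT, and nuclear shares of 2.18%, 2.28% and 2.01% in the same order. Here the HET library was the highest of the 3 for both genomes. The exact 95% interval of the KO mitochondrial share in CHGA-high cells, which covers counting error only, was 9.03% to 9.06%.

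For each nuclear UMI there were 3.15 mitochondrial UMIs in KO and 3.15 in HET CHGA-high cells, against 2.76 in WT. The CHGA-low cells had 2.56 in KO and 2.78 in HET, against 2.46 in WT. The ratio was 1.14-fold that of WT in both mutants among CHGA-high cells, and 1.04-fold in KO and 1.13-fold in HET among CHGA-low cells. Single cells spread far more widely than the libraries did. From the 10th to the 90th percentile the ratio ran from 1.28 to 5.13 over KO, from 1.84 to 5.31 over HET and from 1.19 to 4.84 over WT CHGA-high cells, with medians of 3.01, 3.02 and 2.63. The limit on mitochondrial UMIs removed 9.0% of KO, 10.5% of HET and 9.50% of WT CHGA-high cells. A limit of 10% left 709 of 1122 KO, 456 of 638 HET and 1453 of 1649 WT CHGA-high cells. The ratios were then 1.03-fold that of WT in KO and 1.06-fold in HET. That limit cuts on the mitochondrial UMIs that the ratio compares, and took a larger part of the KO and HET cells. It therefore cannot check the ratio.

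**Figure D1:**
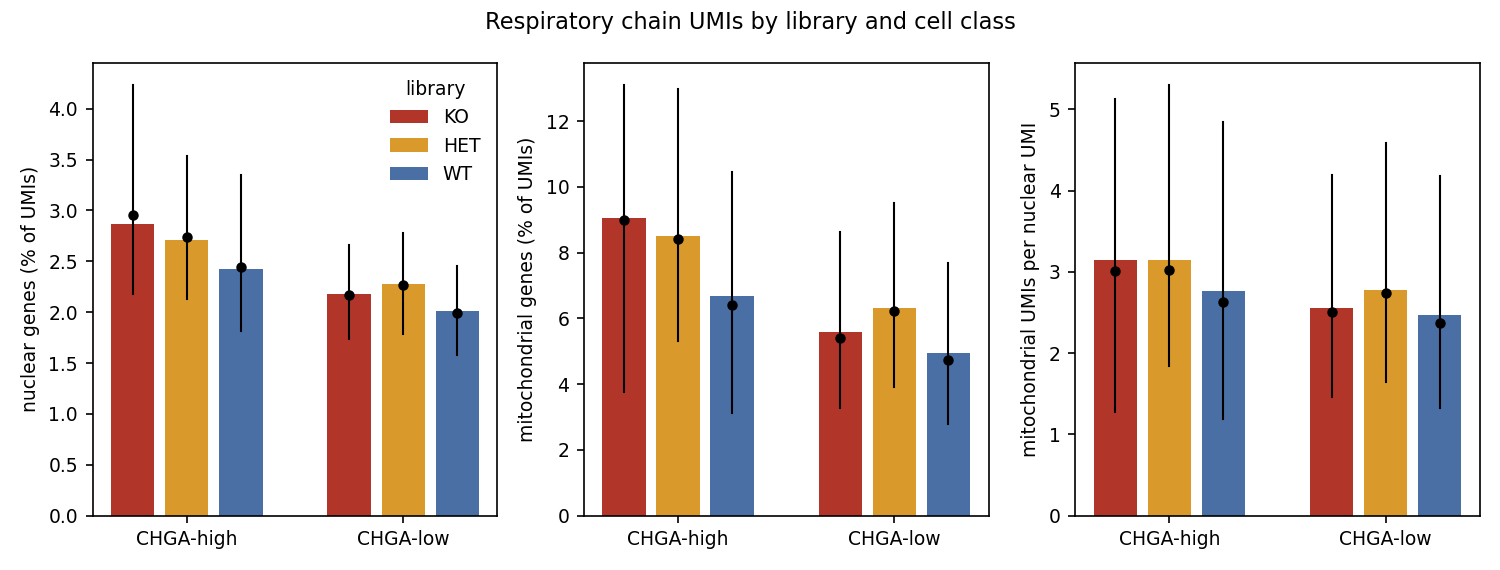
UMIs of the nuclear genes and of the mitochondrial genes, each as a percentage of all UMIs, and their ratio, in CHGA-high and CHGA-low cells of the KO, HET and WT libraries. Bars are summed over all cells of a class, and dots with lines are the median and the 10th to 90th percentile over cells. The summed mitochondrial share of CHGA-high cells is 9.04% in KO, 8.52% in HET and 6.69% in WT.

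Hormone messages took a different share of the RNA in each library, 0.672% of CHGA-high UMIs in KO, 3.16% in HET and 4.60% in WT. With them left out, the nuclear share was still 1.14-fold higher in KO and 1.10-fold higher in HET than in WT. The same direction held when CHGA-high cells were divided by their leading hormone gene (GCG, INS, SST, GHRL, the enterochromaffin enzyme TPH1, or none). The nuclear share was 1.10-fold to 1.31-fold that of WT in the 6 KO groups and 1.05-fold to 1.23-fold in the 6 HET groups. The mitochondrial share was 1.21-fold to 1.38-fold that of WT in KO and 1.16-fold to 1.37-fold in HET. INS-led cells alone gave 1.37-fold in KO and 1.31-fold in HET. The SST-led groups rest on 11 KO, 17 HET and 73 WT cells.

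On the scale used below for single genes, CPM with TMM factors, the summed nuclear level in CHGA-high cells was 1.09-fold that of WT in KO and 1.07-fold in HET, and the mitochondrial level 1.24-fold and 1.22-fold. Plain CPM moved the median KO to WT log2 ratio of all genes in CHGA-high cells from -0.03 to 0.11. Relative to the median of all genes, the nuclear median was 0.12 higher with TMM and 0.10 higher with plain CPM, and the mitochondrial median 0.48 and 0.46 higher.

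The mitochondrial genes did not move evenly. The 4 genes with the shortest annotated transcripts were 1.85-fold to 2.30-fold higher in the mutant CHGA-high cells. MT-CO1, MT-ND4 and MT-CYB, with long annotated transcripts, were close to their WT levels. MT-ND3, a small membrane subunit of complex I, had 8406 CPM in KO and 8776 CPM in HET, against 4383 CPM in WT CHGA-high cells. The log2 ratio was 0.94 in KO (counting interval 0.93 to 0.95) and 1.00 in HET (0.99 to 1.01). In CHGA-low cells MT-ND3 had 6849 CPM in KO and 7662 CPM in HET, against 4348 CPM in WT, with log2 ratios of 0.66 and 0.82. Both mutants were above WT in both classes.

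MT-ND6, the only protein gene on the other strand of the mitochondrial genome and also a membrane subunit of complex I, had 310 CPM in KO and 279 CPM in HET, against 135 CPM in WT CHGA-high cells. The fold was 2.30 in KO and 2.06 in HET, and 2.23 and 2.39 in CHGA-low cells. MT-ATP8, which encodes a small ATP synthase subunit, had 125 CPM in KO and 135 CPM in HET, against 66.3 CPM in WT. MT-ND4L, another complex I subunit, had 459 CPM in KO and 454 CPM in HET, against 245 CPM in WT. These 4 genes have the shortest annotated transcripts of the 13, from 207 bases (MT-ATP8) to 525 (MT-ND6).

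MT-CO1, the catalytic subunit of complex IV, had 13443 CPM in KO and 12313 CPM in HET, against 13386 CPM in WT CHGA-high cells. That is a log2 ratio of 0.01 in KO and -0.12 in HET. MT-ND4 gave 0.09 in KO and 0.07 in HET, and MT-CYB, the cytochrome b of complex III, 0.16 and 0.13. Among the genes of middle annotated length, MT-ATP6 gave 0.45 and 0.49, MT-CO3 0.45 and 0.59, MT-ND2 0.50 and 0.57, MT-ND1 0.51 and 0.38, and MT-CO2 0.24 and 0.10. MT-ND5, the longest at 1812 bases, did not follow the order of lengths, with 0.36 in KO and 0.30 in HET.

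In all, 4 of 13 mitochondrial genes were at least 1.5-fold higher in KO CHGA-high cells and none was lower, where 5.63% of all 3572 genes with at least 50 CPM were higher and 9.55% lower. In HET CHGA-high cells 5 of 13 were higher (the same 4 and MT-CO3) and none lower, beside 2.39% and 5.21% of all genes. CHGA-low cells gave 4 of 13 higher in KO, beside 2.65% of all genes, and 4 of 13 in HET, beside 2.6%. At least 2-fold higher were MT-ND6 in KO CHGA-high cells (beside 1.4% of all genes higher and 2.77% lower), MT-ND6, MT-ATP8 and MT-ND3 in HET CHGA-high cells (beside 0.547% and 0.864%), and MT-ND6 in CHGA-low cells of KO (beside 0.519% and 1.66%) and of HET (beside 0.438% and 1.2%). No respiratory chain gene with at least 50 CPM in either library compared was 2-fold lower. Both comparisons share the WT library. Across the 13 genes the log2 ratio and annotated transcript length had Spearman correlations of -0.78 in KO and -0.80 in HET CHGA-high cells, and -0.68 and -0.69 in CHGA-low cells. The genes share their cells and libraries and are not replicates. GC content followed the ratio as well, with correlations of -0.61 in KO and -0.65 in HET CHGA-high cells, and -0.77 and -0.69 in CHGA-low cells.

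**Figure D2:**
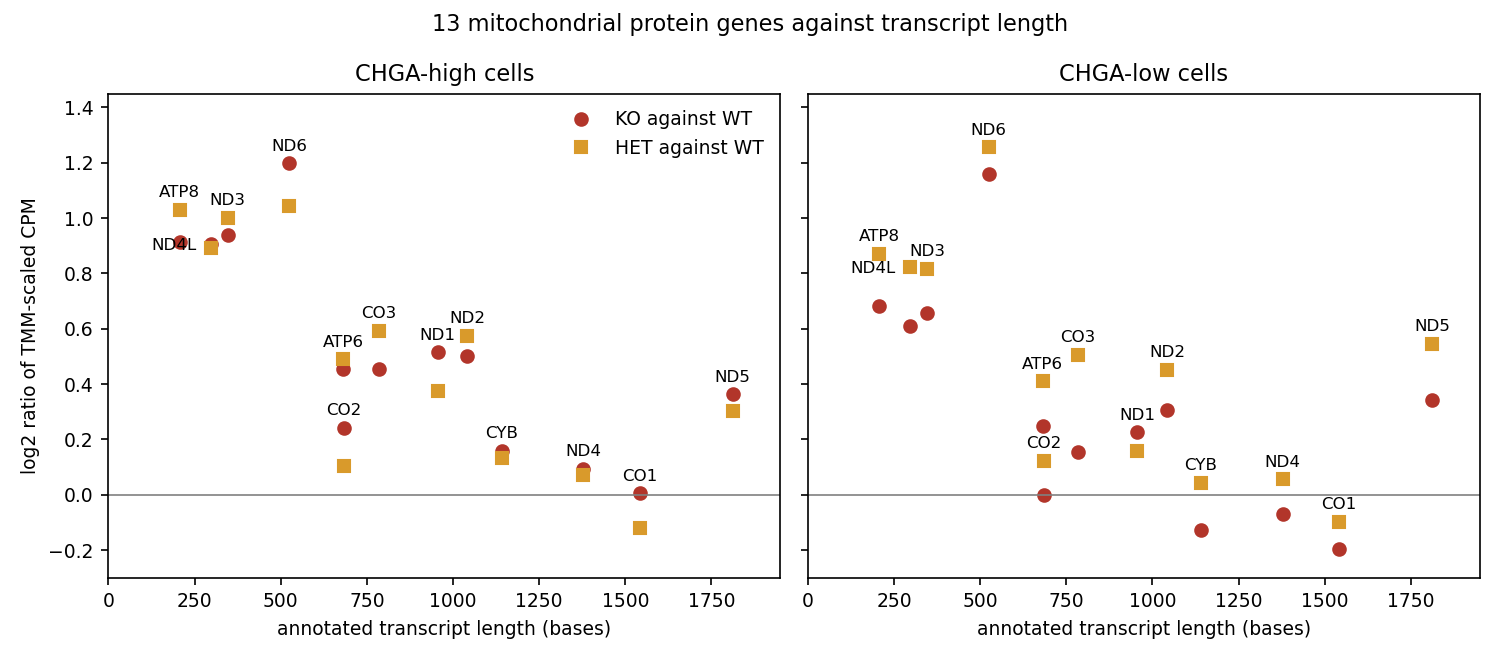
Log2 ratio of TMM-scaled CPM, KO against WT and HET against WT, for the 13 mitochondrial protein genes by annotated transcript length in bases, in CHGA-high and CHGA-low cells. MT-ATP8, MT-ND4L, MT-ND3 and MT-ND6 lie above all genes with longer annotated transcripts in each class, and MT-CO1 lies between -0.20 and 0.01.

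MT-ATP8 and MT-ND4L each overlap a longer gene. The overlaps are shown because reads within them belong to both genes, and how such reads were counted is not given in the sources used here. Capitals mark the bases common to both genes, with 10 bases on each side, on the + strand of GRCh38.

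MT-ATP8 and MT-ATP6, chrM:8527-8572: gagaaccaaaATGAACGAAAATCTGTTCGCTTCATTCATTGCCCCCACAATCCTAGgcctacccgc

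MT-ND4L and MT-ND4, chrM:10760-10766: acctactccaATGCTAAaactaatcgt

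The 46 shared bases begin with the ATG of MT-ATP6 and end with the TAG stop of MT-ATP8, and the 7 shared bases hold the ATG of MT-ND4 and the TAA stop of MT-ND4L. MT-ATP8 and MT-ATP6 are known to be translated from 1 mRNA, as are MT-ND4L and MT-ND4. The annotated lengths of MT-ATP8 and MT-ND4L are thus not the lengths of the mRNAs that carry them. Within the second pair the log2 ratios in KO CHGA-high cells were 0.91 for MT-ND4L and 0.09 for MT-ND4, and within the first 0.91 for MT-ATP8 and 0.45 for MT-ATP6. MT-ND3 and MT-ND6 overlap no other protein gene.

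The shift was seen across cells. MT-ATP8, MT-ND4L, MT-ND3 and MT-ND6 together made up 11.3% of mitochondrial protein gene UMIs in KO and 11.9% in HET, against 7.28% in WT CHGA-high cells, and 12.97% in KO and 12.98% in HET, against 8.66% in WT CHGA-low cells. The median over CHGA-high cells was 11.2% in KO (10th to 90th percentile 8.70% to 14.4%) and 11.8% in HET (8.99% to 15.2%), against 7.24% in WT (4.72% to 10.4%). The share was 10.4% to 11.6% in the 6 hormone groups of KO and 10.5% to 12.4% in those of HET, against 6.30% to 7.66% in WT. The groups of a genotype come from the same library and are not replicates. MT-CO1 made up 16.3% in KO and 15.2% in HET, against 20.2% in WT CHGA-high cells.

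**Figure D3:**
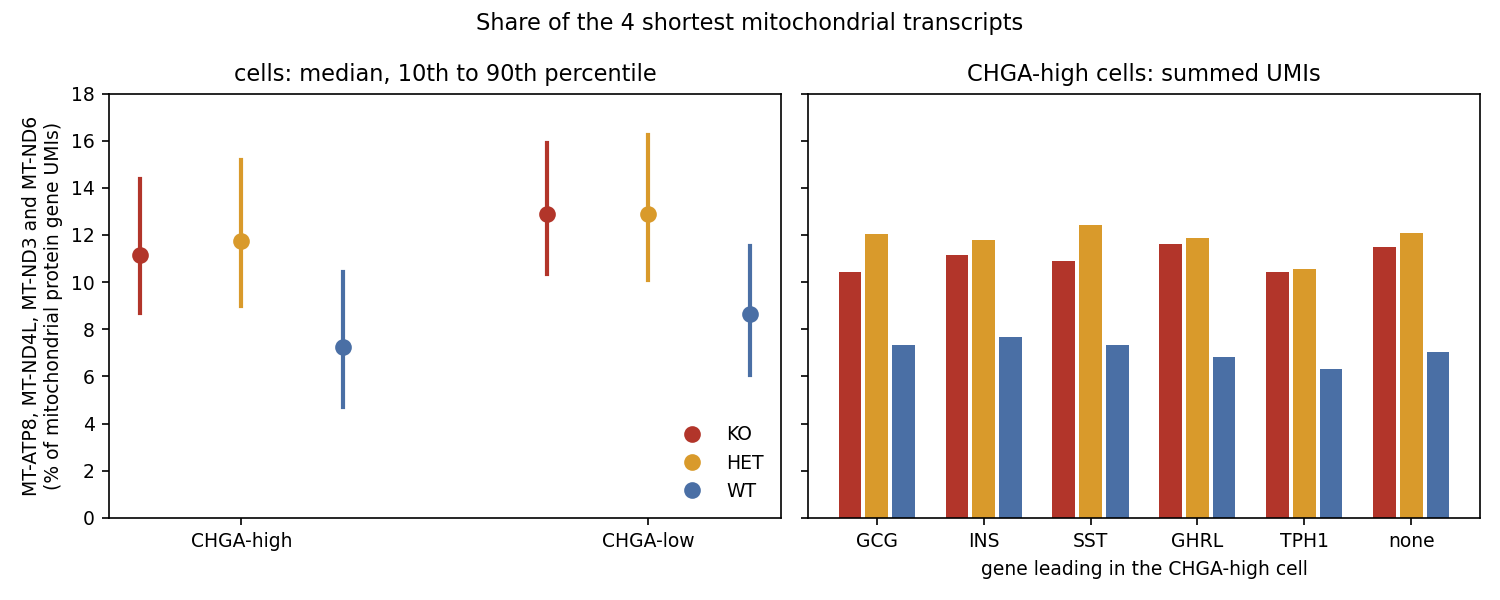
Share of mitochondrial protein gene UMIs from MT-ATP8, MT-ND4L, MT-ND3 and MT-ND6, in percent. On the left, dots and lines are the median and the 10th to 90th percentile over cells of the KO, HET and WT libraries; on the right, bars are summed UMIs of CHGA-high cells by leading hormone gene, from 10.4% to 11.6% in KO, 10.5% to 12.4% in HET and 6.30% to 7.66% in WT.

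Other genes under 600 bases moved the same way in part, but over all lengths the genes outside the respiratory chain had the opposite order. Among 44 genes under 600 bases that are not respiratory chain genes, the median log2 ratio in CHGA-high cells was 0.16 in KO and 0.28 in HET, and in KO 11 were at least 1.5-fold higher and 3 lower, beside 5.63% and 9.55% of all genes. Without ribosomal protein genes the median of the 35 left was 0.086 in KO and 0.22 in HET, with 9 higher and 3 lower in KO. SLIRP, of 408 bases, which encodes a partner of LRPPRC in keeping mitochondrial mRNAs stable, stood at 1.16 in KO and 0.95 in HET. The 172 genes of 600 to 900 bases had a median of -0.22 in KO and those over 3000 bases 0.09. Over all genes that are not members, the Spearman correlation of ratio and length was 0.32 in KO and 0.24 in HET CHGA-high cells. In CHGA-low cells it was 0.33 and 0.26. These are opposite in sign to those of the mitochondrial genes. The 80 nuclear members had the same sign as the mitochondrial genes, at -0.22 in KO and -0.25 in HET CHGA-high cells. In CHGA-low cells they gave -0.16 and -0.20. For GC content the genes that are not members gave -0.28 in KO and -0.24 in HET CHGA-high cells. In CHGA-low cells they gave -0.18 and -0.20, again the sign of the mitochondrial genes. The nuclear members lay between -0.06 and 0.03 for GC content. Signs of cell and RNA state moved as well. The nuclear-retained MALAT1 and NEAT1 summed to 20633 CPM in KO and 22720 CPM in HET, against 27298 CPM in WT CHGA-high cells, and the 17 dissociation and immediate early genes to 4033 CPM in KO and 3838 CPM in HET, against 3027 CPM in WT. The part of any of these in the mitochondrial ratios was not tested.

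Nuclear genes differed little. Of 101 nuclear members, 80 reached 50 CPM in at least 1 library and could be compared, and 21 stayed below it, 12 of these below 5 CPM. In KO CHGA-high cells 2 of 80 were at least 1.5-fold higher and none lower, where 5.63% of all genes were higher and 9.55% lower. HET CHGA-high cells had none in either direction, beside 2.39% of all genes higher and 5.21% lower. In CHGA-low cells KO had none higher and 1 lower, and HET 2 higher and 1 lower, beside 2.65% of all genes higher and 6.91% lower in KO, and 2.6% and 6.78% in HET. The HET count of higher genes is near the share of all genes. The median log2 ratio of the 80 genes was 0.09 in KO and 0.05 in HET CHGA-high cells, beside medians over all genes of -0.03 and -0.05, and -0.02 in KO and 0.03 in HET CHGA-low cells, beside -0.05 and -0.08.

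UQCRQ, a small subunit of complex III (chr5:132866560-132868031, + strand, GRCh38), had the largest nuclear ratio in CHGA-high cells. It had 377 CPM in KO and 340 CPM in HET, against 232 CPM in WT CHGA-high cells, and 257 CPM in KO and 265 CPM in HET, against 179 CPM in WT CHGA-low cells. The log2 ratio in CHGA-high cells was 0.70 in KO (counting interval 0.65 to 0.75) and 0.55 in HET. ATP5MD, a small ATP synthase subunit, had 470 CPM in KO and 451 CPM in HET, against 310 CPM in WT CHGA-high cells. Its log2 ratio was 0.60 in KO and 0.54 in HET.

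Of the accessory subunits of complex I, none reached 1.5-fold in CHGA-high cells. NDUFC1 had 211 CPM in KO and 206 CPM in HET, against 144 CPM in WT, and NDUFB2 had 412 CPM in KO and 395 CPM in HET, against 282 CPM in WT. Both passed 1.5-fold in HET CHGA-low cells, at log2 ratios of 0.62 and 0.60. NDUFA13 stood at 0.49 in KO and 0.39 in HET. NDUFB5 was on the lower side, at -0.44 in KO and -0.42 in HET. The median of the 29 accessory subunits measured was 0.14 in KO and 0.08 in HET CHGA-high cells.

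The 7 nuclear core subunits of complex I, which carry the flavin and iron-sulphur centres, had a median of -0.08 in KO and -0.20 in HET, and their summed level was 962 CPM in KO and 927 CPM in HET, against 1025 CPM in WT CHGA-high cells. NDUFS1, the largest of them, had the largest ratio among them, with 125 CPM in KO and 108 CPM in HET, against 84.2 CPM in WT, a log2 ratio of 0.57 in KO and 0.36 in HET. NDUFV1, which binds NADH, gave -0.02 in KO and -0.07 in HET.

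Complex II, the succinate dehydrogenase shared with the tricarboxylic acid cycle, was slightly lower. Its 4 genes summed to 220 CPM in KO and 229 CPM in HET, against 253 CPM in WT CHGA-high cells. SDHD gave -0.41 in KO and -0.34 in HET, SDHA, which stayed under 50 CPM, -0.35 and -0.22, SDHC -0.18 and -0.13, and SDHB 0.04 and 0.04. None of the 3 measured reached 1.5-fold. In complex III the core proteins UQCRC2 (-0.40 in KO, -0.29 in HET) and the Rieske iron-sulphur protein UQCRFS1 (-0.29 and -0.34) stood below 0, and UQCRC1 (0.37 and 0.08) above it.

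In complex IV, COX4I1 gave -0.14 in KO and -0.22 in HET, COX6A1 -0.15 and -0.13, COX7A2 0.34 and 0.23, and COX8A 0.37 and 0.33. The tissue-restricted isoforms were close to absent in all 6 sums: COX6A2 and COX7A1 of heart and muscle, COX4I2, COX7B2, COX8C, and NDUFA4L2, the hypoxia-induced paralog of NDUFA4, each had at most 1.02 CPM. Among them COX6A2 stood at 0.51 CPM in KO and 0.46 CPM in HET, against 0.04 CPM in WT CHGA-high cells, from 9 UMIs in KO, 5 in HET and 1 in WT. In the catalytic head of ATP synthase, ATP5F1A gave -0.02 in KO and -0.07 in HET, and ATP5F1B 0.39 and 0.17. ATP5IF1, the inhibitor of the enzyme's reverse reaction, gave 0.36 and 0.27. ATP5MC2, a gene of the membrane c ring, was lower in each comparison, at -0.42 in KO and -0.45 in HET CHGA-high cells and -0.66 and -0.49 in CHGA-low cells. COX7A2L, a factor of respiratory supercomplexes, gave -0.36 and -0.49, and -0.57 and -0.63.

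**Figure D4:**
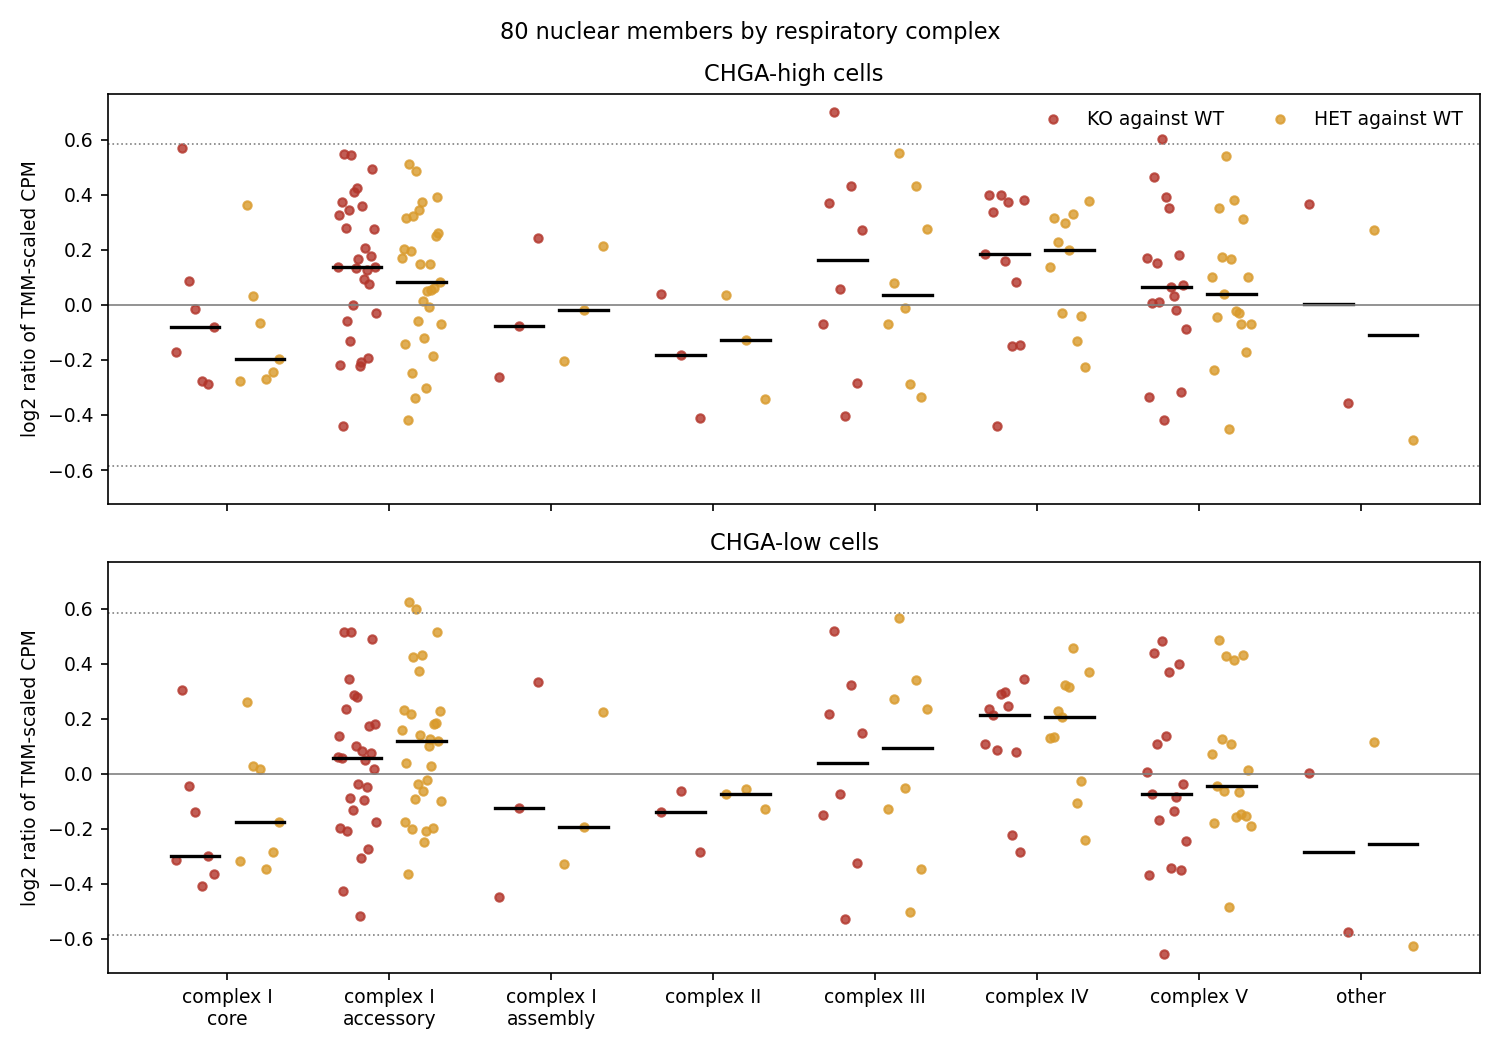
Log2 ratio of TMM-scaled CPM, KO against WT and HET against WT, of the 80 nuclear genes with at least 50 CPM in a library, by complex, in CHGA-high and CHGA-low cells. Black bars are medians and dotted lines mark 1.5-fold. Most points lie within the lines, and UQCRQ and ATP5MD pass the upper one in KO CHGA-high cells.

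NDUFA4, first described as a complex I subunit and now assigned to complex IV (chr7:10931951-10940256, - strand, GRCh38), was the one whose KO ratio differed most between the classes. It had 439 CPM in KO and 583 CPM in HET, against 594 CPM in WT CHGA-high cells, and 849 CPM in KO and 922 CPM in HET, against 800 CPM in WT CHGA-low cells. The KO log2 ratio was -0.44 in CHGA-high and 0.09 in CHGA-low cells. Within hormone groups, in plain CPM, KO was below WT in INS-led cells (435 against 591), in GCG-led cells (348 against 505) and in cells with no leading hormone (542 against 737), but not in TPH1-led cells (451 against 424). With the hormone groups weighed the same the ratio was -0.43.

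The genes around the chain are counted beside the 5.63% of all genes at least 1.5-fold higher and 9.55% lower in KO CHGA-high cells. Of 11 tricarboxylic acid cycle genes measured in CHGA-high cells, none reached 1.5-fold in KO or HET, with a median of -0.16 in both. Of the mitochondrial ribosomal protein genes, 1 of 51 was lower and none higher in KO, with a median of -0.06. In the list for mitochondrial DNA transcription and replication, 2 of 7 were higher in KO, SLIRP and PNPT1, a mitochondrial RNA-processing enzyme at 0.80. TFAM, which packages mitochondrial DNA, gave 0.44 in KO and 0.48 in HET, and LRPPRC 0.42 and 0.38. Among complex III and IV assembly genes, COA5 (-1.03 in KO, -0.80 in HET) and COA1 (-0.72 and -0.74) were lower and COX20 was higher in KO (0.61). The import gene TIMM8B was higher, at 0.79 and 0.72. Of 30 hypoxia and glycolysis genes 15 were measured in KO CHGA-high cells, none higher and 2 lower, VEGFA (-1.23) and PFKL (-1.09). HET CHGA-high cells had 1 of 16 higher and none lower, the lowest at -0.35, beside 2.39% and 5.21% of all genes. In CHGA-low cells KO had 3 of 17 higher and 1 lower, with a median of 0.38, and HET 2 of 17 and 1. All genes there had 2.65% higher and 6.91% lower in KO, and 2.6% and 6.78% in HET.

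The comparison of CHGA-high with CHGA-low cells has 3 libraries on each side and could be tested. Nearly all mitochondrial genes and many nuclear ones were higher in CHGA-high cells. edgeR's quasi-likelihood test with the library as a block, adjusted over all 19250 genes tested by the Benjamini-Hochberg method at 0.05, called 54 of 109 tested members higher and 8 lower. Of all genes, 24.5% were called higher and 29.2% lower. The calls comprised 42 of 96 nuclear genes higher and 8 lower, and 12 of 13 mitochondrial genes higher. The median log2 ratio was 0.17 over the nuclear and 0.36 over the mitochondrial genes, beside -0.07 over all genes. The 3 libraries differ in genotype, so the spread in this test is that of the class difference across genotypes.

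This result moved with the scale and with the libraries used. On plain CPM 5933 of all genes were called higher and 4198 lower, against 4722 and 5630 with TMM, the median of all genes moved to 0.08, and 72 members were called higher and 3 lower. Without the WT library 29 members were called higher and 4 lower, without HET 36 and 3, and without KO 36 and 6. The counts without the block were 20 and 3. Over all genes tested, 3627 of 19658 were called higher and 4263 lower without WT, and 3680 and 4111 of 19321 without HET. They numbered 4145 and 4854 of 19356 without KO, and 3519 and 3667 of 19250 without the block. Genes for cytosolic ribosomal proteins, a large part of the RNA, fell in CHGA-high cells, 70 of 73 of them by edgeR, from a set summing to 121376 CPM in KO, 136493 CPM in HET and 137457 CPM in WT CHGA-high cells, against 193698, 188587 and 207332 CPM in the CHGA-low cells of the same libraries. Proliferation markers were lower too, 5 of 5 by edgeR. The part of these in the result was not tested, except that without CHGA-low cells holding MKI67 or TOP2A UMIs 55 members were called higher. Over all genes, 4752 of 18983 were called higher in that run.

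By share of all UMIs, the nuclear genes were 1.32-fold higher in CHGA-high than in CHGA-low cells of KO, 1.19-fold in HET and 1.20-fold in WT. The mitochondrial genes were 1.62-fold higher in KO, 1.35-fold in HET and 1.35-fold in WT. All 13 mitochondrial genes were above CHGA-low cells in each of the 3 libraries, as were 53 of 80 nuclear genes, while 13 of 80 were below in each. The same count over all genes is not given here. By edgeR's estimate, 71 of 96 nuclear members were above 0, beside 8809 of all 19250 genes tested. Here the order of annotated transcript lengths was not that seen against WT: the Spearman correlation over the 13 genes was 0.53.

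MT-ND5 had the largest mitochondrial ratio, with 2115 CPM in CHGA-high against 1214 CPM in CHGA-low cells of KO, 2029 against 1399 CPM in HET, and 1644 against 958 CPM in WT. Its log2 ratio was 0.71 ± 0.08 (SE, edgeR adjusted p = 0.0010). MT-ND4 followed at 0.49 ± 0.08. Both were called under every alternative run. MT-ND3 gave 0.17 ± 0.09 (edgeR adjusted p = 0.15) and was the one mitochondrial gene not called. With cells over 10% mitochondrial UMIs left out, MT-ND1, MT-CO1, MT-CO3, MT-ND4L, MT-ND6 and MT-CYB were no longer called. That limit cuts on the mitochondrial UMIs being compared.

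Among nuclear genes with at least 50 CPM, ATP5F1E and NDUFB1 had the largest ratios. ATP5F1E, the epsilon subunit of the ATP synthase stalk (chr20:59025467-59032382, - strand, GRCh38), had 1972 CPM in CHGA-high against 1130 CPM in CHGA-low cells of KO, 2159 against 1155 CPM in HET, and 1739 against 857 CPM in WT. The log2 ratio was 0.91 ± 0.07 (edgeR adjusted p = 0.00031). The CHGA-high cells were above the CHGA-low cells in every library. Their levels within hormone groups, in plain CPM, ran from 1766 to 2532 in KO, 1601 to 3234 in HET and 1198 to 2229 in WT.

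NDUFB1, a complex I accessory subunit, had 332 CPM in CHGA-high against 166 CPM in CHGA-low cells of KO, 319 against 175 CPM in HET, and 288 against 160 CPM in WT, with a log2 ratio of 0.90 ± 0.07 (edgeR adjusted p = 0.00021). ATP5MC1, another gene of the c ring, had 213 against 107 CPM in KO, 200 against 122 CPM in HET, and 203 against 136 CPM in WT, with 0.76 ± 0.09 (edgeR adjusted p = 0.0012). The other c ring genes differed: ATP5MC2 gave 0.21 ± 0.07 and ATP5MC3 -0.00 ± 0.06, neither of them called. NDUFB8 at 0.65, NDUFA5 at 0.56, NDUFS7 at 0.49, NDUFB3 at 0.48, NDUFA12 at 0.48 and COX8A at 0.47 completed the largest 10 with NDUFA4, and all were called.

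By complex, beside the 24.5% of all genes called higher and 29.2% lower, 20 of 30 accessory and 4 of 7 core nuclear subunits of complex I were higher, with 1 and 0 lower. In complex III 4 of 9 were higher and 1 lower, in complex IV 4 of 14 and 1, and in ATP synthase 4 of 18 and none. The shares higher in complex IV and ATP synthase are near that of all genes. Complex II had none of 4 higher and 2 lower, SDHA (-0.30 ± 0.07) and SDHC (-0.21 ± 0.06). NDUFA4 was lower, with 439 against 849 CPM in KO, 583 against 922 CPM in HET, and 594 against 800 CPM in WT, and a log2 ratio of -0.68 ± 0.11 (edgeR adjusted p = 0.0033). The assembly factors NDUFAF4 (-0.51 ± 0.07) and NDUFAF2 (-0.39 ± 0.07) were lower as well, and these 3 were called lower under every alternative run. UQCRH (-0.28), NDUFB4 (-0.25) and NDUFAF8 (-0.23) complete the list of 8, and UQCRH is nearly identical to the retrogene UQCRHL, so reads may be split between them. Genes with no call included COX4I1 (-0.16 ± 0.07), ATP5F1A (-0.03 ± 0.06) and ATP5F1B (0.04 ± 0.08).

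**Figure D5:**
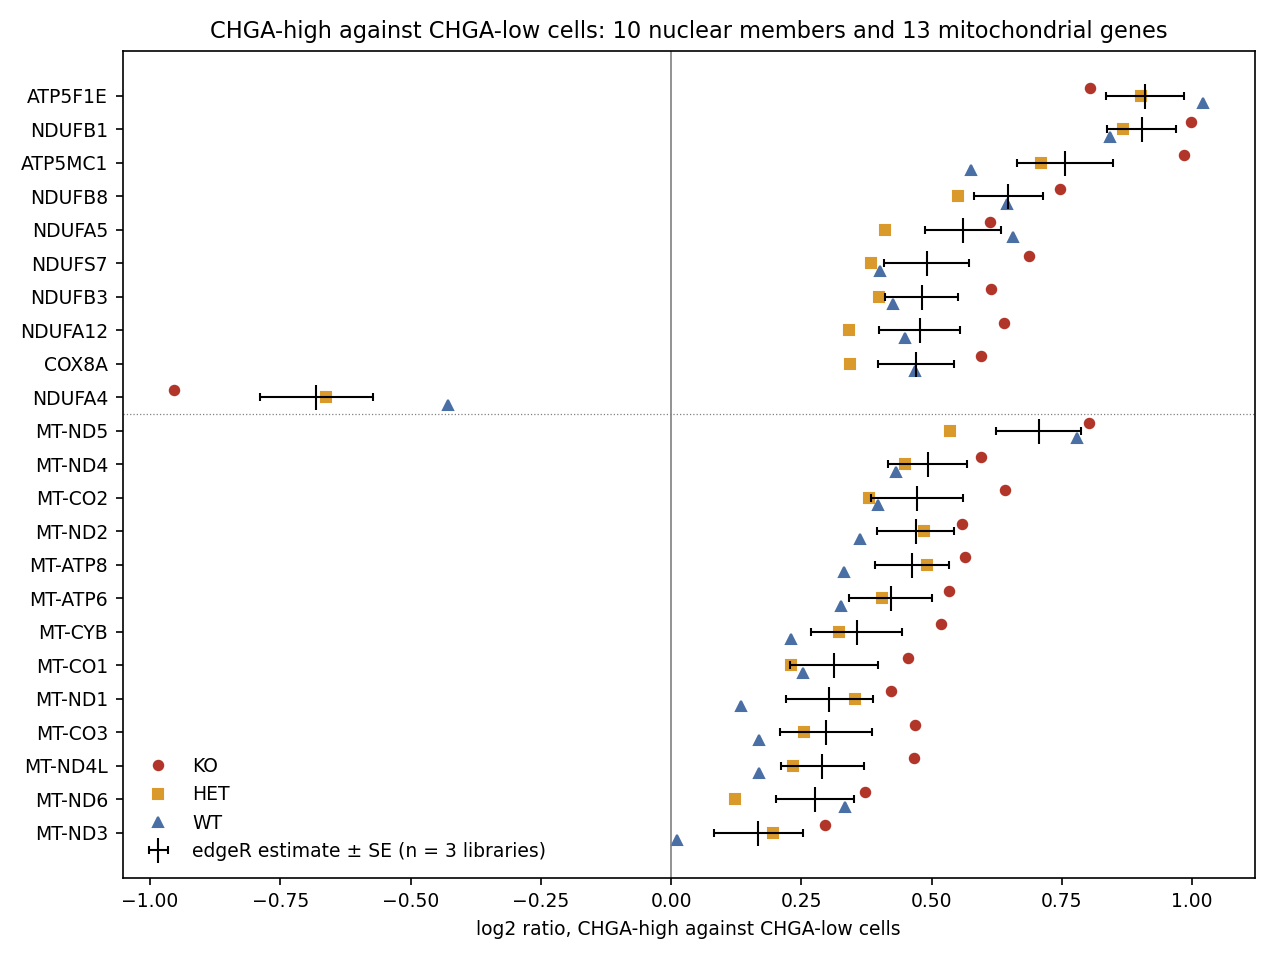
Log2 ratio of CHGA-high against CHGA-low cells in the KO, HET and WT libraries, and the edgeR estimate with its standard error over 3 libraries, for the 10 nuclear genes of largest ratio and the 13 mitochondrial genes. All lie above 0 in every library except NDUFA4, which lies between -0.95 and -0.43.

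Outside the members, 5 of 13 genes for electron carriers (cytochrome c, CYC1 and ubiquinone synthesis) were higher in CHGA-high cells and 1 lower by edgeR. The tricarboxylic acid cycle genes had 4 of 18 higher and 6 lower, the mitochondrial ribosome 14 of 78 and 23, and hypoxia and glycolysis 5 of 30 and 17, beside 24.5% of all genes higher and 29.2% lower. The first 2 of these lists are near the shares of all genes. COX17, the copper chaperone of complex IV, stood at 0.90. The import list had 1 of 23 higher and 10 lower, and the biogenesis regulators none of 8 higher and 5 lower.

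Nuclear respiratory chain promoters are known for sites of the factor NRF1 and of ETS family factors such as GABPA. A RefSeq promoter on GRCh38.p14 was found for 78 of the 101 nuclear members. The 250 bases before the RefSeq start were searched on both strands. RefSeq starts can differ from those of GENCODE, which gave the gene coordinates above. The NDUFS7 window printed below lies inside the GENCODE gene, which starts at chr19:1383527. The SDHB, UQCRQ and COX8A windows run past the GENCODE start. The letters GCATGCGC, the NRF1 core, were present in 12 of 78 (15.4%), against 2.81% of all 27305 promoters of that length. The letters CCGGAAG, an ETS core, were present in 17 of 78 (21.8%), against 8.82%. Promoters of 4 genes named above show the matches in capitals. SDHB holds both cores, NDUFS7 the NRF1 core, and UQCRQ and COX8A the ETS core.

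SDHB, chr1:17054033-17054282, - strand: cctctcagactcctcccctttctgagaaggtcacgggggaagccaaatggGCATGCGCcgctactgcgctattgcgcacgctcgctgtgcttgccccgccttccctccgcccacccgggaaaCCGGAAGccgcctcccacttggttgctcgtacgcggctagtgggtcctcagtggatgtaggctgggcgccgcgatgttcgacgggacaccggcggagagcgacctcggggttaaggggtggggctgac

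NDUFS7, chr19:1383657-1383906, + strand: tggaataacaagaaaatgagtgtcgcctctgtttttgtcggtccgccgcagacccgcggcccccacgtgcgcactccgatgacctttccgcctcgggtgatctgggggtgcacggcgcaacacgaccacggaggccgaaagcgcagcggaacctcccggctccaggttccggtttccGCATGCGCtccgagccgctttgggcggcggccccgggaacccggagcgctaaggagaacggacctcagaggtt

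UQCRQ, chr5:132866392-132866641, + strand: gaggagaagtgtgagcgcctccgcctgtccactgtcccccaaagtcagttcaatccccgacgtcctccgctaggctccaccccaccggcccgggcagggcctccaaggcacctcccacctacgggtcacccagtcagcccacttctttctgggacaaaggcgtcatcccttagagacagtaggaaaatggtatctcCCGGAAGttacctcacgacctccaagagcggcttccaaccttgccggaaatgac

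COX8A, chr11:63974370-63974619, + strand: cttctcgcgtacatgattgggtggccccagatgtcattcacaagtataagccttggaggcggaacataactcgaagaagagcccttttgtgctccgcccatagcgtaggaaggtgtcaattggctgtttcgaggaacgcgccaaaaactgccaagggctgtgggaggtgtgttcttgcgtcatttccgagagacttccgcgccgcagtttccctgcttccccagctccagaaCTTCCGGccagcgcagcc

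A match describes the letters and not a bound site. NRF1 itself had 7.20 CPM in KO and 6.15 CPM in HET, against 6.05 CPM in WT CHGA-high cells, and GABPA 18.6 CPM in KO and 18.6 CPM in HET, against 15.6 CPM in WT.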

How the data were processed

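Droplet RNA libraries of KO, HET and WT cells, 1 each, were analysed. The deposited values were raw counts of UMIs per gene and barcode. The file headers name Cell Ranger 6.1.2, and Seurat and GRCh38 stand in the submitters' processing notes without a role. No source used here gives the aligner settings, annotation, strand setting or read end.

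Barcodes with at least 1000 UMIs, 500 genes and at most 20% mitochondrial UMIs were kept. Scrublet (scanpy 1.11.5, expected rate 0.08) called 1168 WT barcodes (13.5%) and none in HET or KO, so it had not worked there and no doublets were removed; an alternative drops the top 8% of scores. Counts were summed over the 6 combinations of library and class and scaled to CPM in R 4.3.3, using edgeR 4.0.16 for TMM factors over all genes. Log2 ratios between genotypes have exact 95% counting intervals, which cover counting error only. CHGA-high and CHGA-low sums were compared with edgeR's quasi-likelihood test on ~ library + class, and with DESeq2 1.42.0 as an alternative. The edgeR script was tested on simulated data with known changes.

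All 114 members were found by identifier in GENCODE 29, whose principal transcript gave lengths and coordinates. Genes named include the 13 mitochondrial genes and a fixed list of isoforms and core subunits. They also include the 10 nuclear members of largest absolute ratio in each comparison with at least 50 CPM. Members of these sets of 10 not named above are ATP5MF (0.46 in KO CHGA-high, 0.49 in HET CHGA-low cells) and UQCR11 (0.43 in KO and in HET CHGA-high cells). The others are ATP5MPL (0.38 in HET CHGA-high cells), and NDUFC2 (-0.52) and NDUFAF3 (-0.45) in KO CHGA-low cells. Other genes named were chosen after their values were seen. The members and gene lists were chosen with earlier results of these data known. The length classes were too.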

Additional observations from a re-analysis of the deposited data

Results flagged for a closer look

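3 genes had KO to WT log2 ratios of opposite sign in the cell classes, with counting intervals that exclude 0 in both classes on both TMM-scaled and plain CPM. Other members, MT-ND4 among them, also changed sign but did not meet this on both scales. The difference was not tested, and with 1 library per genotype it has no replicate check. NDUFA4 gave -0.44 in CHGA-high cells and 0.087 in CHGA-low cells. ATP5MC1 gave 0.064 and -0.34, and MT-CYB gave 0.16 and -0.13.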

How the results depend on the processing

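With 1 library per genotype, library preparation, differentiation and genotype cannot be told apart. No paired analysis was possible because each genotype has 1 sample, so the library block only joins the 2 classes of a library. The cause of each change below was not tested.

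The ratio of mitochondrial to nuclear UMIs stayed above that of WT under every alternative run. The runs with at most 10% mitochondrial UMIs cut on the UMIs that the ratio compares, so they cannot check it. In KO CHGA-high cells it was 1.15-fold with at least 3000 UMIs per cell, 1.03-fold with at most 10% mitochondrial UMIs and 1.11-fold with hormone groups weighing the same. In HET CHGA-high cells it was 1.10-fold at 50 CHGA UMIs per 10000, 1.13-fold with at least 3000 UMIs, 1.06-fold with at most 10% mitochondrial UMIs and 1.16-fold without the top 8% of doublet scores. In KO CHGA-low cells it was 1.04-fold without MKI67 or TOP2A cells, 1.03-fold at 10%, 1.04-fold without top doublet scores and 1.03-fold with only subunits. In HET CHGA-low cells it was 1.10-fold at 10%, 1.14-fold with no limit, 1.13-fold without top doublet scores and 1.12-fold with only subunits.

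The nuclear share against WT in KO CHGA-high cells was 1.17-fold at 50 CHGA UMIs per 10000, 1.18-fold with at least 3000 UMIs, 1.21-fold without top doublet scores and 1.14-fold without hormone UMIs. In HET CHGA-high cells it was 1.14-fold at 50 CHGA UMIs, 1.12-fold at 10% mitochondrial UMIs, 1.09-fold with hormone groups weighing the same, 1.13-fold without top doublet scores and 1.10-fold without hormone UMIs. In CHGA-low cells it was 1.09-fold in KO with only subunits, and in HET 1.14-fold at 10%, 1.13-fold with no limit, 1.14-fold without top doublet scores and 1.14-fold with only subunits.

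The nuclear genes at least 1.5-fold apart in KO CHGA-high cells numbered 7 on plain CPM, 9 on plain CPM without mitochondrial UMIs and 5 without hormone UMIs, and the mitochondrial genes 8 without mitochondrial UMIs in the scaling. The median log2 ratio of all genes there was 0.11, 0.16 and 0.05 on these scales, against -0.03 with TMM. The share of all genes past 1.5-fold is not given here for any setting in this paragraph, so a shift common to all genes is not set apart. In HET CHGA-high cells the nuclear genes numbered 2 on plain CPM, 3 without mitochondrial UMIs, 1 without hormone UMIs, 2 at 50 CHGA UMIs, 1 without top doublet scores and 1 at a limit of 5 CPM. In KO CHGA-low cells they numbered 3 on plain CPM, 4 without mitochondrial UMIs, 3 without hormone UMIs, and 2 with hormone groups weighing the same, no mitochondrial limit, no top doublet scores, DESeq2 size factors or 5 CPM. In HET CHGA-low cells they numbered 5 on plain CPM, with or without mitochondrial or hormone UMIs.

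Between CHGA-high and CHGA-low cells, 20 members were called higher and 3 lower without the library as a replicate block, and 29 to 36 higher and 3 to 6 lower with a library left out. The calls over all genes in these runs are given above. Members called lower numbered 3 on plain CPM, 3 on plain CPM without mitochondrial UMIs, 5 by DESeq2 and 5 with TMM over the genes tested alone, a setting added after seeing the data. Over all genes, those called lower numbered 4198, 3912, 4505 and 4960 in the same order, against 5630 in the main run. Some ratios, none of them called, changed sign. SDHD was 0.066 on plain CPM and 0.10 without mitochondrial UMIs, and COX4I1 0.028 on the second. ATP5F1A was 0.11 and 0.15 on these, 0.000135 with DESeq2 size factors, 0.015 by DESeq2 and 0.028 with TMM over the genes tested alone. With a library left out ATP5F1B was -0.032 (without KO) to 0.093. NDUFA4L2, which was close to absent in every sum, was -0.53 to 0.024 (without KO).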
